A study of Mus musculus with 2 samples.

Results

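Deubiquitinating enzymes remove ubiquitin, the small protein that cells attach to other proteins to mark them for breakdown or to switch their activity. In T cells such enzymes act on receptor adaptors, on NF-kB signalling, on histones and on short-lived regulators such as Mdm2. The genes described here were chosen by symbol: protein-coding mouse genes whose names start with Usp and a digit (ubiquitin-specific proteases, Usp18 left out), Otud or Otub (ovarian tumour proteases), Uchl (ubiquitin C-terminal hydrolases), Josd or Atxn3 (Josephin proteases), together with Bap1. They are 73 genes, of which 53 had at least 1 splice junction that could be named and 48 had at least 20 junction reads over both libraries, among 9644 named genes and 7195 genes with that many reads in the whole series. The 73 hold 55 Usp genes, 10 OTU genes, 5 genes of the C-terminal hydrolase family with Bap1, and 3 Josephin genes. Usp6nl matches by symbol only, since it encodes a GTPase-activating protein and no protease.

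Spliced RNA was compared between CD4+ T cells, the helper lymphocytes, kept 4 h on plate-bound antibodies against CD3e and CD28, each at 2 ug/ml, and mock cells treated in the same way without antibody. Anti-CD3e acts on the T cell receptor complex and anti-CD28 on the main costimulatory receptor. Both groups were splenic cells of male C57BL/6JJcl mice, pooled from 4 spleens and enriched magnetically, with no genetic change named and no age given. Each group is 1 library, so no spread between samples could be measured, no p-value was computed, and every difference is one between these 2 libraries.

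The stimulated library held 1341197 junction reads and the mock library 1147232. The 8 T cell markers looked up were all present, with 5361 stimulated and 4573 mock reads in sum, among them Cd4 with 285 and 650, and Il2, Il2ra, Cd69 and Myc together had 3131 stimulated reads against 156 mock reads. Markers of other cells were low. The B cell list held 142 stimulated and 166 mock reads over 6 of 6 genes. The myeloid list held 23 and 45 over 6 of 6, with Lyz2 at 0 stimulated and 15 mock reads. The cytotoxic list held 5 and 16, all on Cd8b1, and the NK cell list 2 and 0, all on Klrk1, while Cd8a, Ncr1 and Klrb1c had no named junction. The part of such cells in the results below was not tested. In RNA from a whole cell population, fewer cells of a type and less RNA per cell cannot be told apart.

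A gene's value is the sum of its junction reads per 1000000 junction reads of the library (junction RPM), and its ratio is the stimulated value over the mock value, given with an exact (Clopper-Pearson) 95% interval that covers counting error only. With 20 or more reads in the 2 libraries together, a gene was called higher at a ratio of at least 2 and lower at a ratio of at most 0.5, where the interval also excluded 1. Over all genes 17.1% were called higher and 25.1% lower.

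Stimulated cells had more spliced RNA of 4 deubiquitinase genes, Usp31, Usp36, Usp54 and Otud4. They had less of 10 member genes, among them Usp3, Usp28, Usp53, Usp35 and Usp45, while 34 of the 48 measured genes met neither condition. The 10 include Usp6nl, which encodes no protease. Without it 9 of 47 measured members were lower (19.1%), against 25.1% of all genes. Of the measured members 8.33% were called higher, against 17.1% of all genes, and 20.8% lower, against 25.1%, and the difference between these shares was not tested. The median log2 ratio of the 48 was −0.29, against −0.21 over all measured genes. In sum the family held 7821 junction RPM in the stimulated library and 8692 in the mock library, a ratio of 0.900 (0.875 to 0.925). The sum lay the other way under scaling to the trimmed mean of M values (1.06, 1.03 to 1.09) or by the median of ratios (1.05), because these scalings raise every log2 ratio by 0.24 and 0.23. Under the trimmed mean 9 members were called higher and 8 lower, where 21.6% and 19.6% of all genes were called, so the balance of higher to lower calls depends on the scaling. Under the median of ratios 8 members were higher and 8 lower, against 21.4% and 20.1% of all genes.

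**Figure D1:**
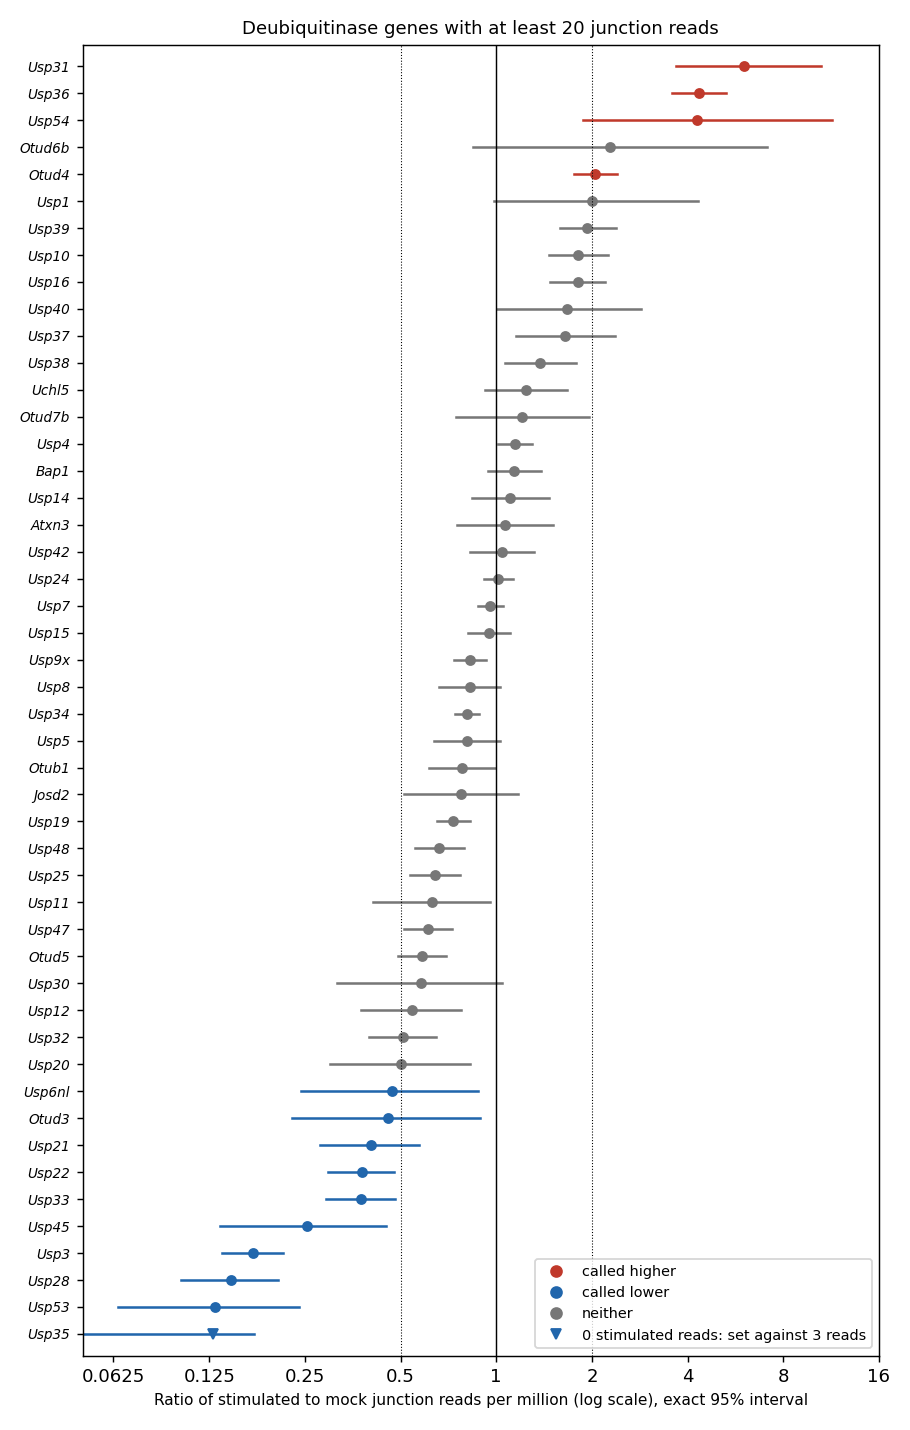
Ratio of stimulated to mock junction RPM for the 48 deubiquitinase genes with at least 20 reads (points, log axis) with exact 95% intervals (bars), where dotted lines mark ratios of 0.5 and 2. Usp31, Usp36, Usp54 and Otud4 are called above a ratio of 2, Otud6b lies there with an interval that holds 1, 10 genes stand below 0.5, and Usp35 (triangle) had 0 stimulated reads and was set against 3 reads.

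The junctions themselves are shown for the called genes described most fully below. Each line is the spliced sequence across the most-read junction of the gene that lies in coding sequence, read from the matched GENCODE M21 transcript (GRCm38), 5′ to 3′ on the gene's strand, with the last 25 bases of the upstream exon in lower case and the first 25 bases of the downstream exon in capitals. Intron positions are those of the deposited files (mm9).
Usp36, intron 15 of 20, chr11:118126555-118129115, minus strand: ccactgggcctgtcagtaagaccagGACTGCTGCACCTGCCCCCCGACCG
Usp31, intron 6 of 15, chr7:128816769-128818369, minus strand: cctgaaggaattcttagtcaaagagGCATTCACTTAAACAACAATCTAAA
Usp54, intron 5 of 20, chr14:21408489-21408595, minus strand: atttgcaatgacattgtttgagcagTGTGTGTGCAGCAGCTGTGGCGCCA
Otud4, intron 11 of 20, chr8:82185035-82187623, plus strand: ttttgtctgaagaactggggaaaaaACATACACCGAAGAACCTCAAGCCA
Usp3, intron 5 of 14, chr9:66391836-66393550, minus strand: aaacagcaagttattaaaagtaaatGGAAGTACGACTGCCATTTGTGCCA
Usp28, intron 2 of 23, chr9:48808534-48809612, plus strand: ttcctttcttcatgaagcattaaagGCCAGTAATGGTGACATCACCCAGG
Usp53, intron 5 of 15, chr3:122664156-122664236, minus strand: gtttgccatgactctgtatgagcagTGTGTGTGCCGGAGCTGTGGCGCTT
Usp45, intron 9 of 16, chr4:21731461-21737888, plus strand: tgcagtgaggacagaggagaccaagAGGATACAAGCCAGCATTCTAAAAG
These junctions carried 93 stimulated and 21 mock reads in Usp36, 24 and 3 in Usp31, 8 and 0 in Usp54, and 84 and 44 in Otud4. In the genes with less spliced RNA they carried 28 stimulated and 194 mock reads in Usp3, 3 and 29 in Usp28, 3 and 10 in Usp53, and 3 and 12 in Usp45. The lines for Usp54 and Usp53 show the same junction of a pair of related genes: 41 of 50 bases are equal (82.0%), with 8 stimulated and 0 mock reads on that of Usp54 and 3 and 10 on that of Usp53.

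Usp36, a protease of the nucleolus, where ribosomes are built, had the largest gain by read number. It had 634 junction reads in the stimulated library, against 125 in the mock library, a ratio of 4.34 (3.58 to 5.30). The gain ran along the gene: all 19 of its junctions with at least 10 reads had a ratio above 1, from 1.94 to 15.8. Per intron of the matched transcript, which allows levels of genes of different length to be compared, Usp36 stood at 23.6 RPM in the stimulated library, the second highest level of the family after Usp7, against 5.45 in the mock library. Among all measured genes those levels are at percentile 88.7 and 47.4.

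Usp31, a large member of the family that in human cells has been linked to restraint of NF-kB, had the highest ratio, 6.04 (3.67 to 10.5). Its junctions held 127 stimulated reads, against 18 mock reads, so Usp31 reached the minimum only through the stimulated library. All 7 of its junctions with at least 10 reads had a higher RPM in the stimulated library. Of these, introns 2, 8 and 15 held 26, 15 and 13 stimulated reads and no mock read, and over the junctions seen in both libraries alone the ratio was 2.57 (1.48 to 4.65). Counting such junctions alone lowers the ratio of a gene with few mock reads by construction.

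Otud4, an OTU protease that in human cells works with Usp7 and Usp9x in the repair of alkylated DNA, had 577 stimulated reads, against 241 mock reads, and a ratio of 2.05 (1.76 to 2.39). It lay just above the threshold, and 18 of its 19 junctions with at least 10 reads were above 1. Its most-read junction alone gave 1.63 (1.12 to 2.41), which is not a call. Usp54 had far fewer reads, 35 in the stimulated library and 7 in the mock library, and a ratio of 4.28 (1.87 to 11.4). No single junction of Usp54 reached 10 reads, it reached the minimum through the stimulated library, and over junctions seen in both libraries its ratio was 2.35 (0.70 to 10.1) on too few reads for a call.

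**Figure D2:**
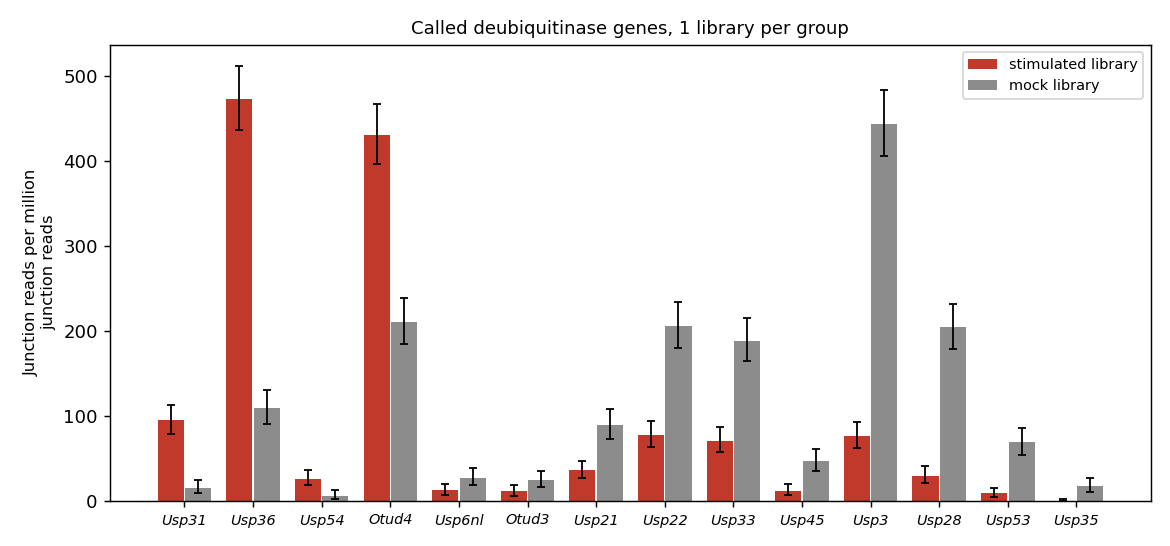
Junction RPM for the 14 called genes in the stimulated library (red) and the mock library (grey), 1 library each; bars are single values and error bars are exact 95% Poisson intervals of the counts. Usp36 and Otud4 stand highest among the gains, with 634 and 577 stimulated reads, and Usp3 among the losses, with 508 mock reads.

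Usp3, which removes ubiquitin from histones H2A and H2B, had 102 stimulated reads, against 508 mock reads, and was 5.82-fold lower (4.70 to 7.27). All 12 of its junctions with at least 10 reads were below 1. Per intron it stood at 5.43 RPM in the stimulated library, against 31.6 in the mock library, where it was the second highest gene of the family. Intron 5 alone held 28 stimulated and 194 mock reads, and without it the ratio was 0.202 (0.154 to 0.260).

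Usp22, the histone H2B protease of the SAGA coactivator complex, had 104 stimulated and 236 mock reads and was 2.65-fold lower (2.10 to 3.37), with 11 of 12 junctions below 1. Usp45, which acts on the DNA repair nuclease subunit Ercc1, had 16 stimulated and 54 mock reads and was 3.95-fold lower (2.22 to 7.39). Its reads were not spread alike: introns 15 and 16, the last of the matched transcript, held 7 stimulated and 2 mock reads, while all other junctions held 9 and 52, which is 6.75-fold lower (3.30 to 15.6). That split was made after the values were seen. Over junctions seen in both libraries alone Usp45 had a ratio of 0.652 (0.318 to 1.31) and met neither condition.

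Usp28, which in human tumour cells stabilises Myc, fell by the largest factor among genes with more than 100 reads. It had 40 stimulated reads, against 234 mock reads, and was 6.84-fold lower (4.87 to 9.82), and all 11 of its junctions with at least 10 reads were below 1. Per intron it stood at 1.26 RPM in the stimulated library and 8.83 in the mock library, at percentiles 14.7 and 65.5 of all measured genes. Usp53, a tight junction associated member of the family, had 12 stimulated and 79 mock reads and was 7.70-fold lower (4.17 to 15.5), and had a ratio of 0.229 (0.106 to 0.455) over the junctions that both libraries held.

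Usp35 had no stimulated read and 20 mock reads, spread over 8 junctions. It was at least 5.77-fold lower by the limit of the interval of its counts, and is drawn at 7.79-fold lower, the value with 3 reads in place of 0. It reached the minimum through the mock library alone. The 3 reads set in place of a count of 0 stand for 2.24 RPM in the stimulated library, and for 2.61 in the mock library.

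Usp33, which in human cells binds the von Hippel-Lindau protein, had 95 stimulated and 216 mock reads and was 2.66-fold lower (2.08 to 3.42), with all 13 junctions of at least 10 reads below 1. Its most-read junction alone gave a ratio of 0.547 (0.273 to 1.07), no call. Usp21, which acts on the signalling kinase Ripk1, had 48 stimulated and 102 mock reads and was 2.48-fold lower (1.75 to 3.58). The remaining losses were small. Otud3 had 15 and 28 reads and was 2.18-fold lower (1.13 to 4.40). Usp6nl had 17 and 31 and was 2.13-fold lower (1.14 to 4.11). Otud3 and Usp6nl reached the minimum only through the mock library. Neither of these was called lower under the trimmed mean, under the median of ratios, without the most-read junction, or once intervals allowed for the spread among a gene's junctions.

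**Figure D3:**
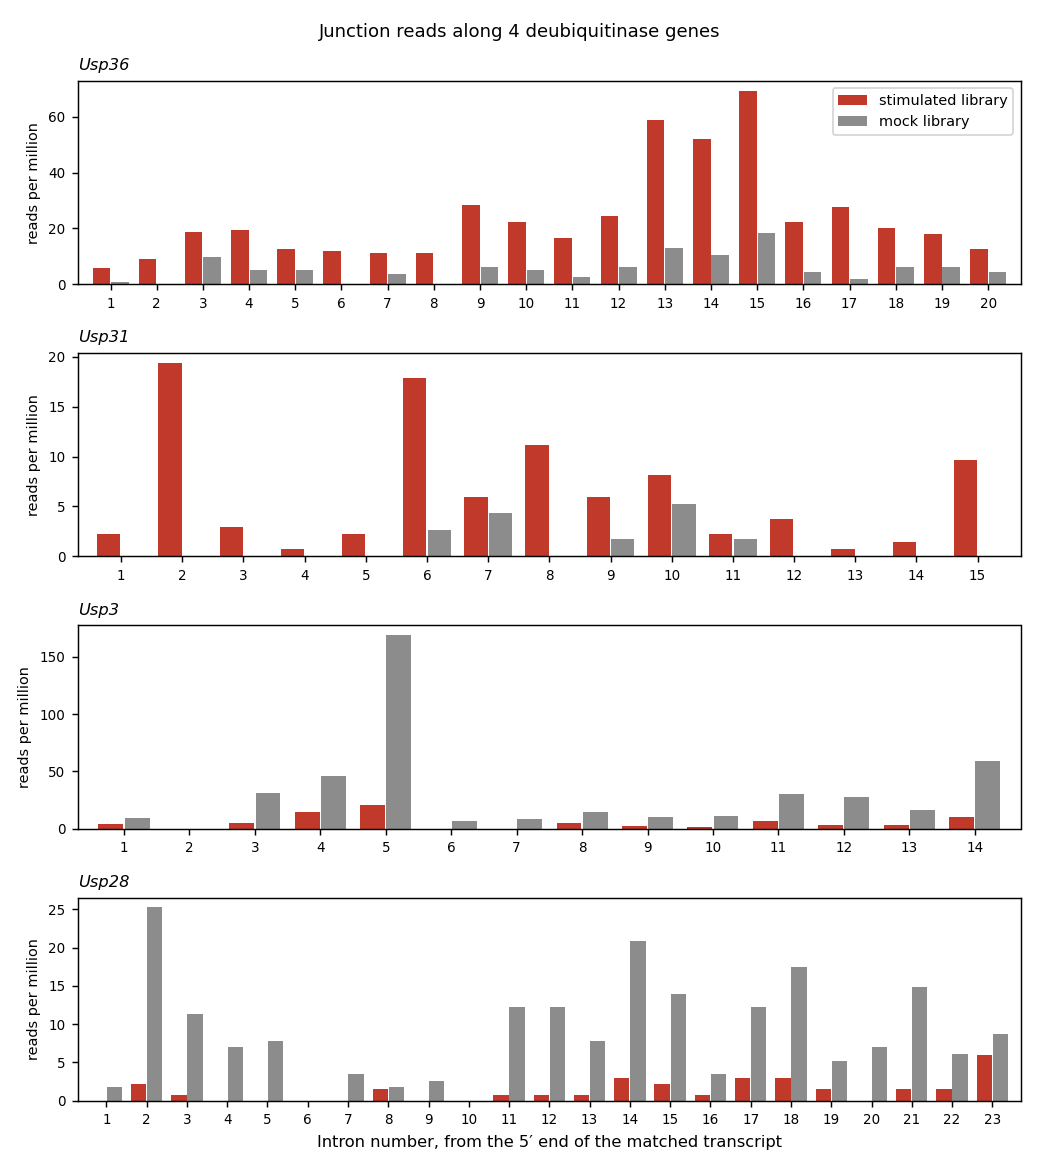
RPM on each intron of the matched transcript, numbered from the 5′ end, for Usp36, Usp31, Usp3 and Usp28 in the stimulated library (red) and the mock library (grey), 1 library each. In Usp36 the stimulated bar is the higher one at all 20 introns, and in Usp3 the mock bar is the higher one at the 13 introns that had a junction.

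The proteases with most junction reads were called neither way. The 5 most-read, Usp34, Usp7, Usp24, Usp9x and Usp19, held 38.7% of all reads of the family. Summed reads grow with the number of introns, which is 79 in Usp34 and 67 in Usp24. Per intron, Usp34, Usp24, Usp9x and Usp19 stood at 9.97, 8.68, 9.49 and 13.9 RPM in the stimulated library. Usp7, which stabilises Mdm2 and so limits p53, had 1070 stimulated and 954 mock reads, a ratio of 0.959 (0.878 to 1.05), and stood highest in level per intron in the stimulated library, at 26.3 RPM, against 27.3 in the mock library. Usp24 had 780 and 658 reads and a ratio of 1.01 (0.913 to 1.13). Usp34, which acts on axin in Wnt signalling, had 1056 and 1115 reads and a ratio of 0.810 (0.744 to 0.882). Usp9x, which in T cells acts on receptor signalling proteins, had 570 and 589 reads and a ratio of 0.828 (0.736 to 0.930). Usp19, which has a form anchored in the endoplasmic reticulum, had 515 and 602 reads and a ratio of 0.732 (0.649 to 0.824).

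For 21 of the 34 genes called neither way, the whole interval lay between 0.5 and 2, so a change of 2-fold lies outside their counting error, while for the other 13 the interval reached one of these limits. For 7 of the 34 the interval lay above 1 and for 12 below 1. These counts depend on the scaling. Under the trimmed mean the intervals of Bap1 (1.11 to 1.63) and Usp24 (1.08 to 1.33) lay above 1. Those of Otub1 (0.727 to 1.17) and Usp11 (0.482 to 1.13) then held 1. The group just under the upper threshold was made up of Usp39, a splicing factor that has lost protease activity, with 326 stimulated and 144 mock reads and a ratio of 1.94 (1.59 to 2.37), Usp10, which is held by the stress granule protein G3bp1, with 271 and 128 reads and a ratio of 1.81 (1.46 to 2.25), and Usp16, a histone H2A protease, with 314 and 149 reads and a ratio of 1.80 (1.48 to 2.21). These 3 were called higher under the trimmed mean and the median of ratios, at 2.29, 2.14 and 2.13 under the trimmed mean, and from their most-read junctions alone, and Usp39 had all 11 of its junctions with at least 10 reads above 1. Usp1, which acts on Fancd2 and PCNA in DNA repair, had 28 and 12 reads and a ratio of 2.00 (0.983 to 4.31), and was called higher under both scalings as well.

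Several proteases known from T cell signalling met neither condition. Usp4, which acts on Traf adaptors, had 605 stimulated and 451 mock reads and a ratio of 1.15 (1.01 to 1.30). Its relative Usp15, which stabilises Mdm2 in T cells, had 368 and 332 reads and a ratio of 0.948 (0.815 to 1.10). Usp25, which acts on Traf adaptors as well, had 216 and 288 reads and a ratio of 0.642 (0.535 to 0.768). Usp8, an endosomal protease, had 159 and 165 reads and a ratio of 0.824 (0.659 to 1.03). Usp12, which in human T cells has been linked to the surface level of the T cell receptor, had 52 and 82 reads and a ratio of 0.542 (0.376 to 0.777). Usp48 stood at 0.663 (0.554 to 0.792) and Usp47 at 0.610 (0.513 to 0.725).

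Low in this middle group were Usp32, with 111 stimulated and 187 mock reads and a ratio of 0.508 (0.398 to 0.646), and Usp30, the protease of the mitochondrial outer membrane, with 21 and 31 reads and a ratio of 0.579 (0.316 to 1.04). Usp5, which takes apart free ubiquitin chains, had 137 and 145 reads and a ratio of 0.808 (0.635 to 1.03), and Usp11 had 41 and 56 and a ratio of 0.626 (0.408 to 0.954). Above 1 lay Usp37, with 96 and 50 reads and a ratio of 1.64 (1.16 to 2.36), Usp40, with 47 and 24 and a ratio of 1.68, whose interval began just above 1, and Usp38, at 1.38 (1.07 to 1.78).

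Of the 10 OTU genes 6 were measured, of which Otud4 was higher and Otud3 lower. Otub1, which also blocks the ubiquitin-conjugating enzyme Ube2n, had 137 stimulated and 150 mock reads and a ratio of 0.781 (0.615 to 0.992). Otud5, which acts on Traf3, had 219 and 321 reads and a ratio of 0.584 (0.489 to 0.695). Its level per intron was 19.9 RPM in the stimulated library, against 33.1 in the mock library, the highest there of the family. All 9 of its junctions with at least 10 reads were below 1, and its most-read junction alone gave a call of lower at 0.482 (0.343 to 0.671). Otud7b, which acts on Zap70 in T cells, had 45 and 32 reads and a ratio of 1.20 (0.748 to 1.96), and Otud6b had 16 and 6 and a ratio of 2.28 (0.848 to 7.12), called higher under the trimmed mean alone of the 2 scalings.

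For both measured proteases that bind the proteasome the interval held 1 with scaling to all junction reads. Usp14 had 123 stimulated and 95 mock reads and a ratio of 1.11 (0.840 to 1.46), and Uchl5 had 113 and 78 and a ratio of 1.24 (0.920 to 1.68). Under the trimmed mean the interval of Uchl5 lay above 1 (1.09 to 1.98), while that of Usp14 held 1 (0.993 to 1.73). Bap1, the histone H2A protease that works with Asxl proteins, had 256 and 192 reads and a ratio of 1.14 (0.942 to 1.38). Its interval lay above 1 under the trimmed mean (1.11 to 1.63). Atxn3, the Josephin protease whose human gene is mutated in a spinocerebellar ataxia, had 77 and 62 reads and a ratio of 1.06 (0.750 to 1.51), and Josd2 had 48 and 53 and a ratio of 0.775 (0.513 to 1.17).

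In 9 pairs of paralogues with measured reads, chosen after the gene values were seen and so given as a description, the ratio of one gene was divided by that of the other, with a conditional exact 95% interval that covers counting error only. The interval excluded 1 in 6 pairs, also with reads divided by the variance ratio of 2.01 between junctions of a gene. No such count was made for other pairs of genes, so 6 of 9 has no background to be set against. The Usp54 ratio was 31.5 times that of Usp53 (10.9 to 105), but Usp54 was no call over junctions seen in both libraries. Usp54 reached the minimum of 20 reads only through the stimulated library, and Usp53, Usp45 and Usp35 only through the mock library. Usp16 stood at 7.08 times its relative Usp45 (3.84 to 13.7). Usp25 stood at 4.38 times Usp28 (2.97 to 6.58), and Usp36 at 4.16 times Usp42 (3.07 to 5.64), which had 173 stimulated and 142 mock reads and a ratio of 1.04 (0.830 to 1.31). Usp38, with 164 and 102 reads, stood at least 7.67 times above Usp35 by the limit of the interval. Usp7 and Usp47 differed less, by 1.57 (1.29 to 1.91). For Usp20 and Usp33 the interval of the quotient (0.750 to 2.34) held 1: Usp20 had 27 and 46 reads and a ratio of 0.502 (0.300 to 0.825). For Usp4 over Usp15 it was 0.994 to 1.47 and for Usp11 over Usp15 0.419 to 1.04.

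**Figure D4:**
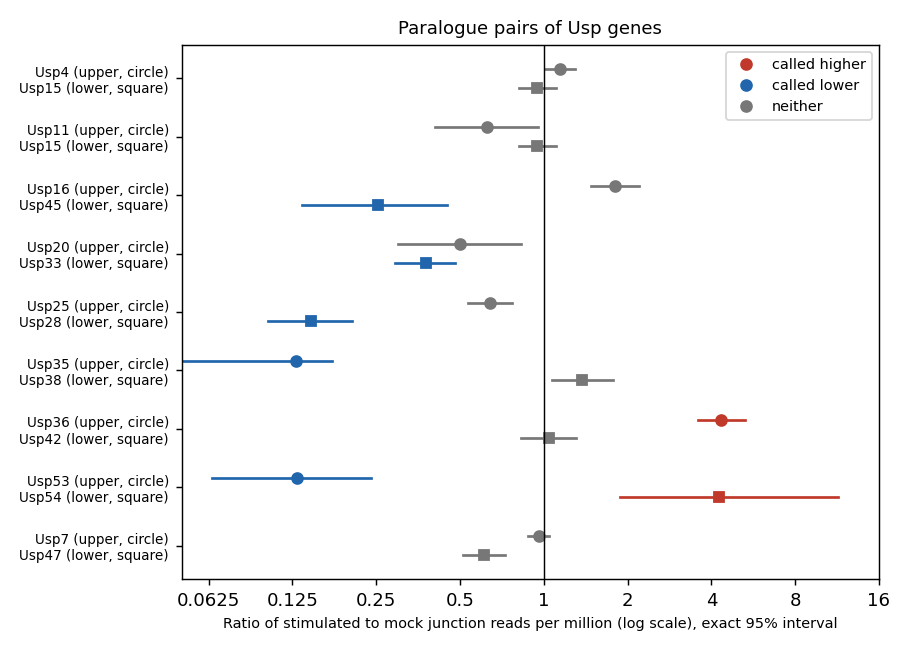
Ratio of stimulated to mock junction RPM (log axis) with exact 95% intervals for both genes of 9 paralogue pairs; colours mark called higher, called lower or neither. The genes of the Usp53 and Usp54 pair lie on opposite sides of 1 with ratios of 0.130 and 4.28, while those of the Usp20 and Usp33 pair lie at 0.502 and 0.376, and Usp35 is set against 3 reads.

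Splice site choice inside these genes was compared where a donor or acceptor served several junctions and held 20 or more reads per library. Of 29 such sites in 17 genes, none moved a junction's share by 20 percentage points with separate intervals, and over all genes 1.56% of 4283 sites did. The count was also 0 of 78 sites with at least 10 reads in each library, against 1.20% of 8491 sites over all genes, and 0 of 29 at 10 percentage points, against 1.91%. With shares this low over all genes, a count of 0 among so few sites is near the background. The largest difference was in Usp9x, where acceptors 15 bases apart follow the donor at chrX:12691771 (mm9, plus strand). The acceptor that adds 15 bases took 8 of 21 stimulated reads (38.1%, 18.1 to 61.6), against 18 of 25 mock reads (72.0%, 50.6 to 87.9), and the intervals overlap. In the same way an acceptor of Otud5 that adds 3 bases took 5 of 32 stimulated reads (15.6%, 5.28 to 32.8), against 17 of 62 mock reads (27.4%, 16.9 to 40.2). The spliced forms, from GENCODE M21 transcripts (GRCm38), are shown with the added bases in capitals.
Usp9x, chrX:12691771-12693734, with the added bases: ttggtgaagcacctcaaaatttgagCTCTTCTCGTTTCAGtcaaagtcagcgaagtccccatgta
Usp9x, chrX:12691771-12693749, without them: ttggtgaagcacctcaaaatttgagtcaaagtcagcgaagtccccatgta
Otud5, chrX:7451080-7451355, with the added bases: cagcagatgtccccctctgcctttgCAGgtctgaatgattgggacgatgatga
Otud5, chrX:7451080-7451358, without them: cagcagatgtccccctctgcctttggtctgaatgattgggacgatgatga
In Usp7, at the donor chr16:8716607 (minus strand), the short intron of 595 bases took 5 of 56 stimulated reads (8.93%, 2.96 to 19.6) and 10 of 36 mock reads (27.8%, 14.2 to 45.2), again with overlapping intervals.

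Among deubiquitinases whose symbols fall outside the rule, 18 of 19 were measured, 1 was higher (5.56%) and 5 were lower (27.8%), against 17.1% and 25.1% over all genes, with a median log2 ratio of −0.36. Tnfaip3, which encodes the NF-kB inhibitor A20, had 324 stimulated and 678 mock reads and was 2.45-fold lower (2.14 to 2.80), and Cyld, which removes chains that signal to NF-kB, had 189 and 463 and was 2.86-fold lower (2.41 to 3.41). Otulin, which acts on linear chains in the same signalling, had 57 and 57 reads and a ratio of 0.855 (0.582 to 1.26) and was called neither way. Stambp, an endosomal protease, had 13 and 39 reads, and Mindy1 and Mindy2 had 10 and 44 and 10 and 52. Stambp, Mindy1 and Mindy2, all called lower, reached the minimum only through the mock library. Psmd14, the protease of the proteasome lid, was the gene called higher, with 245 and 95 reads and a ratio of 2.21 (1.73 to 2.83).

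Among partner proteins of the enzymes, 15 of 21 were measured, 2 were higher (13.3%) and 1 was lower (6.67%), against 17.1% and 25.1% over all genes. Eny2, which holds Usp22 in the SAGA module, had 86 stimulated and 17 mock reads and a ratio of 4.33 (2.55 to 7.77). Eny2 reached the minimum only through the stimulated library. Foxk2, a partner of Bap1, had 84 and 24 reads and a ratio of 2.99 (1.88 to 4.93). Asxl2, another partner of Bap1, had 53 and 98 and was 2.16-fold lower (1.53 to 3.08), a call not kept under the trimmed mean or the median of ratios. Wdr48, the activator of Usp1, Usp12 and Usp46, had 242 and 244 reads and a ratio of 0.848 (0.707 to 1.02).

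Upstream in the pathway, both measured ubiquitin-activating enzymes had more reads after stimulation but missed the threshold, which Uba1 alone passed under the trimmed mean or the median of ratios: Uba1 had 2358 stimulated and 1126 mock reads and a ratio of 1.79 (1.67 to 1.92), and Uba6 had 195 and 104 and a ratio of 1.60 (1.26 to 2.05). Of 37 ubiquitin-conjugating E2 enzymes 17 were measured, of which 3 were higher (17.6%) and 1 lower (5.88%), against the same 17.1% and 25.1%. Higher were Ube2g2 at 3.51 (2.32 to 5.47), Ube2e1 at 2.85 (1.58 to 5.47) and Ube2a at 2.83 (2.02 to 4.02). Ube2e1 reached the minimum of 20 reads only through the stimulated library. Ube2r2 was 2.32-fold lower (1.87 to 2.89) and was not called under the trimmed mean or the median of ratios. Among genes listed as substrates or partner ligases in lymphocytes, 16 of 17 were measured, 5 were higher (31.2%) and 1 was lower (6.25%), against 17.1% and 25.1%. Malt1, a protease of NF-kB signalling, had 527 stimulated and 89 mock reads and a ratio of 5.07 (4.04 to 6.41), and the receptor kinase gene Zap70 had 1557 and 316 and a ratio of 4.21 (3.73 to 4.77). Traf3 had 157 and 65 reads and a ratio of 2.07 (1.54 to 2.80), Foxp3 had 258 and 101 and a ratio of 2.19 (1.73 to 2.78), and Smad7 was 2.81-fold lower (1.77 to 4.59).

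The counts of called deubiquitinase genes were also taken under other settings. Counting the 1 most-read junction per gene, 5 of 36 members were higher and 5 lower, where 20.2% and 23.6% of all genes were. Without that junction, 5 of 45 members were higher and 10 lower, against 17% and 24.5% of all genes. Over junctions present in both libraries, 3 of 46 members were higher and 8 lower, against 15.3% and 21% of all genes. A fold of 4 left 3 higher and 4 lower members, with 6.7% and 8.77% of all genes, and a fold of 1.5 gave 9 and 18, with 23.3% and 33.7%. A minimum of 10 reads gave 4 and 10 of 51 members, with 16.1% and 25.1% of all genes, and one of 50 reads gave 3 and 7 of 42, with 17.9% and 24.1%. Intervals widened by the spread between junctions of a gene left 4 and 8, with 15.6% and 22.3%.

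The other members could not be measured. Usp49, Uchl3, Usp2, Usp46 and Otub2 had named junctions but fewer than 20 reads, with 11 and 7 reads in Usp49, 11 and 3 in Uchl3, 6 and 5 in Usp2, 2 and 4 in Usp46 and 3 and 3 in Otub2. No junction was named for 20 members. Of these, 8 have at most 1 annotated intron and so cannot be named by spacing: Otud1, Otud6a, Uchl4, Usp17lb, Usp17lc, Usp17ld, Usp27x and Usp51. The other 12 were Josd1, Otud7a, Uchl1, Usp13, Usp17la, Usp17le, Usp26, Usp29, Usp43, Usp44, Usp50 and the Y-linked Usp9y. Usp17 genes are near-identical copies of one another, so reads from them would be uncertain in any case.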

How the data were processed

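Data were TopHat splice junction tracks of 1 stimulated and 1 mock library, per the file headers; the submitters' processing notes also name Cufflinks and the build mm9, with versions, settings and filters not given in the sources used here. The score column holds counts of reads spanning each junction, used as deposited, with no normalization by the authors. Mean insert sizes were 199.014 bp (stimulated) and 211.79 bp (mock), per the labels.

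Junctions were named against GENCODE M21 (GRCm38, another build, so no coordinate was converted; readthrough transcripts were left out): a junction took a gene's name when its chromosome, strand and intron length were those of an annotated intron, and the spacing to 1 or more further junctions was exactly that of a transcript of the gene. Of 124183 junctions 95293 (76.7%) were named, and 364 that fitted several genes were not used. Named junctions held 95.8% of stimulated and 95.6% of mock reads. Reads inside exons are not counted. Counts were summed per gene and divided by the library's junction reads. A level per intron divides by the introns of the coding transcript holding most named junctions. A library with 0 reads was set to 3 reads for the ratio. The spread between junctions of a gene was 2.01 times the counting variance over 4909 genes with at least 3 junctions of at least 10 reads, and widened intervals divide reads by it. Scripts ran in Python 3.11.15 with SciPy 1.17.1 and were tested on simulated data. Intervals cover counting error only. Reads are not independent molecules, so the intervals may be too narrow even for that.

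Members and lists were chosen with earlier results of these data known. The genes named are the measured members, those of the other lists called higher or lower with Tnfaip3 and Cyld, and a few genes below the thresholds (Wdr48, Otulin, Uba1, Uba6, the paralogue pairs and the splice sites of Usp9x, Otud5 and Usp7) chosen after values were seen. Some genes of the lists are not reported here.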

Additional observations from a re-analysis of the deposited data

How the results depend on the processing

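No paired analysis was possible because each group has 1 library, and for the same reason no library could be left out. The 4 higher and 10 lower calls were set against 10 other settings. Higher calls numbered 9 under the trimmed mean of M values, 8 under the median of ratios and 9 at a fold of 1.5. Lower calls numbered 5 from the most-read junction alone, 18 at a fold of 1.5 and 4 at a fold of 4. Usp3, Usp28, Usp31 and Usp36 were called under all 10 settings, and Usp21 and Usp22 under all but the fold of 4. The median log2 ratio lay between −0.33 and 0.06. Without Usp6nl, an alternative chosen after seeing the data, 9 were lower. The other pathway lists together had 11 higher and 8 lower of 68, where 17.1% and 25.1% of all genes were; they had 18 and 16 at a fold of 1.5 (all genes 23.3% and 33.7%), and 4 and 2 at a fold of 4 (6.7% and 8.77%). A changed minimum, fold or interval width leaves the ratio as it is. In the settings that change the ratio, that of no called member crossed 1, but some intervals held 1. Examples are Otud3 under the trimmed mean (0.269 to 1.05) and Usp45 over junctions seen in both libraries (0.318 to 1.31). With 1 library per group, depth limits Usp35, Usp54, Otud3 and Usp6nl most, each under 50 reads. Usp35 had no junction seen in both libraries, so it has no value there.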

Other observations

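Junctions with at least 10 reads that appeared in 1 library only made up 21 of 574 in the deubiquitinase genes (3.66%) and 1936 of 48134 (4.02%) over all named genes. The most-read was intron 69 of Usp34, with 0 stimulated and 29 mock reads; without it the Usp34 ratio was 0.832 (0.763 to 0.906) in place of 0.810. Intron 24 of Usp48 had 20 stimulated and 0 mock reads, while its introns 26 and 27 each had 0 stimulated and 11 mock reads.

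A further 122 junctions without a name shared a splice site with a named junction of these genes, in 39 of them, and held 100 stimulated and 73 mock reads. None had 10 reads over both libraries. The most-read, in Otud4 (chr8:82192411-82193175, mm9), had 5 and 2 reads.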
